A study of Mus musculus with 9 samples.

Results

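The binding sites of TGIF1 were compared between uninduced and induced mouse leukaemia cells. A site was a merged cluster of peaks that overlapped by at least 1 bp across the 4 TGIF1 peak lists, and 27621 such sites were found, against 60709 when all 8 lists of the series were merged in the same way. Each site was classed by where it held a peak. New sites had a peak in at least 1 list from 4-OHT-treated cells and none from EtOH-treated cells, kept sites had a peak under both treatments, and absent sites had a peak under EtOH only. There were 24831 new sites (89.9%), 2512 kept sites (9.09%) and 278 absent sites (1.01%). MEIS1 lists took no part in choosing or classing the sites.

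All cells were c-kit+ bone marrow cells of the C57BL/6 strain, transformed by the fusion oncogene MLL-AF9 and transduced with pMIG-TGIF1-ER. In this construct TGIF1 is joined to the estrogen receptor, so that 4-hydroxytamoxifen (4-OHT) switches the fusion protein on. The induced group received 4-OHT for 20 h and the control group received ethanol (EtOH), with 2 libraries in each, all precipitated with the TGIF antibody H-172. Both groups carried MLL-AF9 and TGIF1-ER, and no group received 4-OHT without the construct. Effects of the drug itself cannot be told apart from those of the activated protein, nor can the cells' own TGIF1 be told apart from uninduced fusion protein in the EtOH libraries. Neither clonality of the cells nor separate culture of replicates is stated in the labels, so p-values measure only the spread between these libraries, which may be technical. No expression values were used here, and the labelled cell type was not checked against markers.

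TGIF1 is a homeodomain protein of the TALE class. It acts mainly as a transcriptional repressor, recruits corepressors and histone deacetylases, and is known for restraining SMAD-dependent TGF-beta signalling and retinoid-responsive genes. The TALE class also includes MEIS1, a partner of HOX proteins that sustains MLL-rearranged leukaemia, and proteins of this class recognise closely related short DNA motifs. Chromatin immunoprecipitation followed by sequencing recovers the DNA on which such a protein sits. A peak is a stretch enriched in those reads, its summit the position of greatest enrichment.

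The lists gave positions, lengths and summits, with neither scores nor read numbers, so the depth of each library was unknown. A longer peak, or one more peak, can reflect deeper sequencing as well as more binding, and which of these applied cannot be told apart with these lists. EtOH replicate 2 stood apart with the shortest list (592 peaks), and 4-OHT replicate 2 held the longest (26932 peaks), so values without single libraries are given where they moved most.

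Induced cells had more TGIF1 peaks, and the peaks were also wider. The number of peaks was 2764 and 592 in the EtOH libraries and 12141 and 26932 in the 4-OHT libraries. The bases covered by these peaks came to 0.908 and 0.244 Mb under EtOH and to 5.96 and 18.6 Mb under 4-OHT. Both induced libraries lay above both control libraries in each of these measures. The mean covered length was 0.576 ± 0.469 Mb (SD, n = 2) under EtOH and 12.3 ± 8.96 Mb (SD, n = 2) under 4-OHT, a ratio of 21.3, larger than the ratio of peak numbers, 11.6. Two-sided exact permutation tests over libraries gave p = 0.333 for both, the smallest value that 2 against 2 libraries allow. Median peak length was 283 and 336.5 bp in the EtOH libraries and 438 and 567 bp in the 4-OHT libraries. The group means were 310 ± 37.8 bp and 502.5 ± 91.2 bp (SD, n = 2), a difference of 193 bp (two-sided exact permutation p = 0.333, the smallest possible). These sizes depended on single libraries. The log2 ratio of peak numbers was 3.54, against 5.04 without EtOH replicate 1, 2.82 without EtOH replicate 2 and 2.86 without 4-OHT replicate 2. For covered length it was 4.42, against 5.65 without EtOH replicate 1, 3.76 without EtOH replicate 2, 5.01 without 4-OHT replicate 1 and 3.37 without 4-OHT replicate 2. With every list cut to the 592 longest peaks, the length of the shortest list, it was 1.78. That cut kept peaks down to 70 bp in EtOH replicate 2 but only from 1733 bp in 4-OHT replicate 2, so it favoured 4-OHT in advance. The difference in median length was 128 bp without 4-OHT replicate 2.

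**Figure D1:**
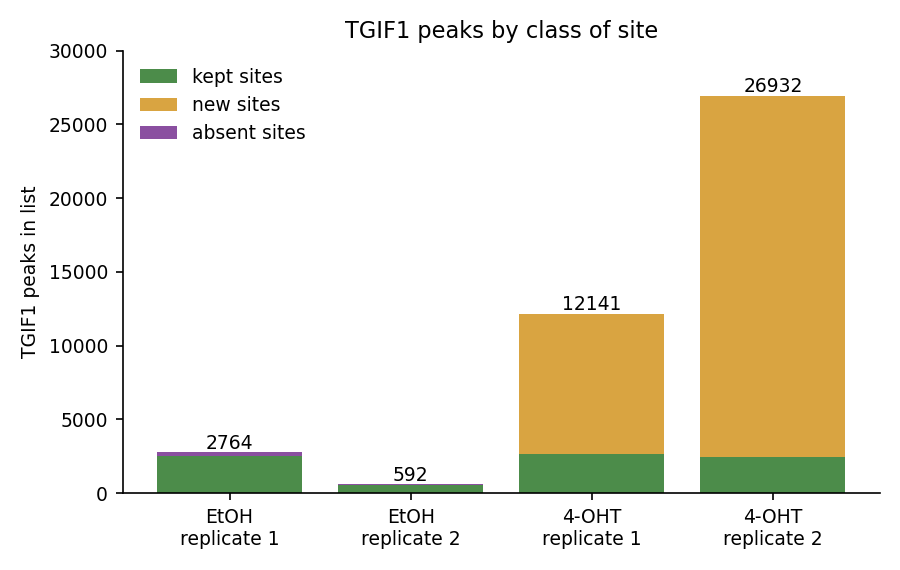
Number of TGIF1 peaks (vertical axis) in each of the 4 libraries, divided by the class of the site they fall in. The 12141 and 26932 peaks of the 4-OHT libraries are mostly at new sites, while the 2764 and 592 peaks of the EtOH libraries are mostly at kept sites.

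By an overlap of 1 bp, most sites seen before induction were seen again after it. Of the 2790 sites with an EtOH peak, 2512 were kept (90.0%, exact 95% interval 88.9 to 91.1%). With a reciprocal overlap of 50% the share was 49.97%, and by that rule a peak more than 2 times as long as another cannot match it. By library, 2425 of the 2668 sites of EtOH replicate 1 were kept (90.9%) and 548 of the 587 sites of EtOH replicate 2 (93.4%), a mean of 92.1 ± 1.74% (SD, n = 2). Both 4-OHT libraries carried a peak at 2348 of the kept sites (93.5%), and 451 kept sites (18.0%) had a peak in all 4 lists. Viewed from the induced cells, 24831 of the 27343 sites with a 4-OHT peak were new (90.8%, exact 95% interval 90.5 to 91.2%). The share of new sites was 79.2% in 4-OHT replicate 1 and 90.9% in 4-OHT replicate 2 (mean 85.0 ± 8.25%, SD, n = 2). Intervals cover the counting of sites only, not the spread between cultures.

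The largest group of sites rested on a single library. The peak pattern held by most sites was a peak in 4-OHT replicate 2 alone, at 15666 sites (56.7%), and the next was a peak in both 4-OHT libraries without an EtOH peak, at 8795 sites (31.8%). Only 370 sites had their sole peak in 4-OHT replicate 1. Of all new sites, 35.4% therefore had a peak in both induced libraries. With 1 EtOH peak added, 1843 sites had peaks in EtOH replicate 1 and both 4-OHT libraries, against 54 with EtOH replicate 2 in that role. The absent sites were almost all seen once: 239 in EtOH replicate 1, 35 in EtOH replicate 2 and 4 in both.

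Peaks of the EtOH libraries were found more often in either induced library than in each other. In EtOH replicate 2, 21.8% of the peaks had no counterpart in EtOH replicate 1, against 13.2% in 4-OHT replicate 1 and 8.61% in 4-OHT replicate 2. In EtOH replicate 1, 83.1% had none in EtOH replicate 2, whose list is short, against 12.2% and 11.03% in the induced libraries. In the other direction, 3.52% of the peaks of 4-OHT replicate 1 were missing from 4-OHT replicate 2, while 80.5% were missing from EtOH replicate 1 and 95.8% from EtOH replicate 2. For 4-OHT replicate 2 the shares were 58.6% missing from the other induced library, and 91.2% and 98.0% missing from the EtOH libraries. For the peaks of each induced library, absence from the EtOH lists was thus more frequent than absence from the other induced list.

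When every list was cut to its 592 longest peaks, the overlaps changed order. The peaks of EtOH replicate 1 were then found in EtOH replicate 2 in 45.8% of cases, more often than in either induced list. Those of 4-OHT replicate 2 were found in 4-OHT replicate 1 in 26.9% of cases, and in the EtOH lists in 15.03% and 14.9%. Those of 4-OHT replicate 1 were found about as often in 4-OHT replicate 2 (28.04%) as in EtOH replicate 1 (28.4%). These peaks had medians of 452.5 and 336.5 bp under EtOH and 1024 and 2003 bp under 4-OHT, so the longer lists entered with longer peaks. The peaks of EtOH replicate 1 were found in the induced lists in 29.6% and 15.9% of cases, and those of EtOH replicate 2 in 24.3% and 15.2%. With these short lists 72.5% of the 4-OHT sites were new and 31.1% of the EtOH sites were kept. The sizes of the new and kept classes thus changed with this cut, which altered the number and the length of the peaks together. With the longer 50% of each list, 90.7% of the 4-OHT sites were new and 92.1% of the EtOH sites were kept.

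By median, the induced peaks were wider at kept sites than at new sites. In 4-OHT replicate 1 the median peak was 550 bp at kept sites and 418 bp at new sites, and in 4-OHT replicate 2 it was 921.5 bp and 548 bp. Ranked by length within its own list, the median kept peak stood at percentile 75.9 in replicate 1 and 82.2 in replicate 2, and the median new peak at 43.0 and 46.1. Both libraries showed the same order, and it extended to the number of EtOH lists with a peak: with 0, 1 and 2 of them, median length was 418, 524 and 668.5 bp in 4-OHT replicate 1 and 548, 868 and 1178 bp in 4-OHT replicate 2. Each list was then divided by peak length into 10 classes of about equal size, from class 1 (shortest) to class 10 (longest). The share of induced peaks at kept sites was larger in each class than in the one before. It went from 4.80% (exact 95% interval 3.66 to 6.16%) to 51.4% (48.5 to 54.2%) in 4-OHT replicate 1, and from 0.518% (0.284 to 0.868%) to 30.9% (29.2 to 32.7%) in 4-OHT replicate 2. Most peaks in the longest class of 4-OHT replicate 2 thus lay at new sites. A longer peak has more bases in which to overlap an EtOH peak by 1 bp. The definition of a site therefore favours this rise, and the order by number of EtOH lists, by itself. Its part was not tested.

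**Figure D2:**
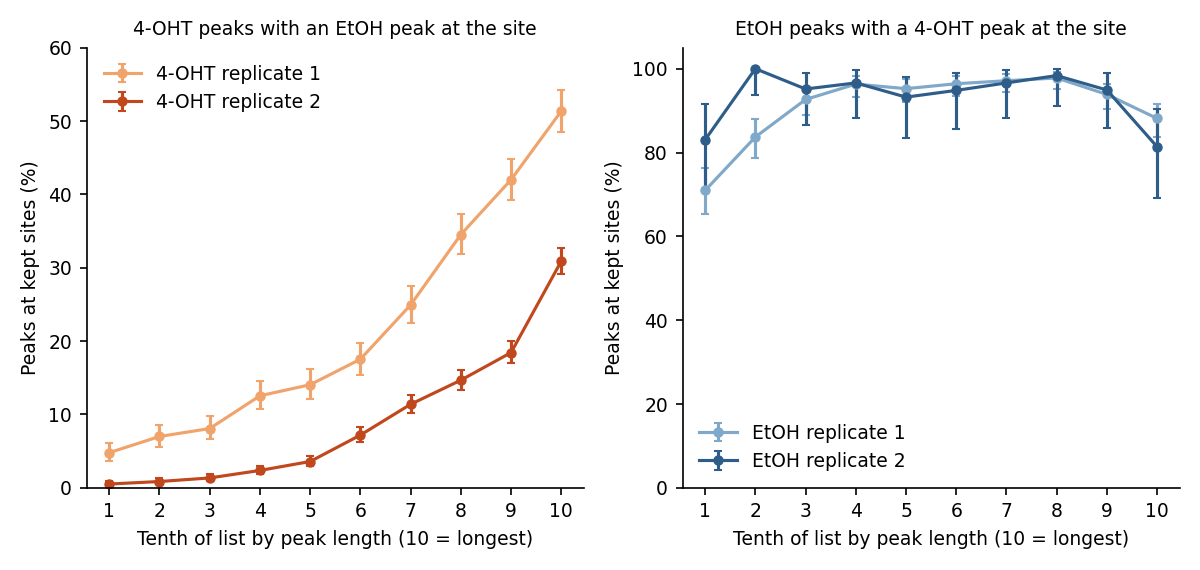
Share of peaks at kept sites (vertical axis, %) by class of peak length (horizontal axis, 1 shortest and 10 longest, each about 10% of the list), for the 4-OHT libraries (left) and the EtOH libraries (right); bars are exact 95% intervals. The induced libraries climb from 4.80% to 51.4% and from 0.518% to 30.9%, while the EtOH libraries are lower at both ends than in the middle.

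Among the peaks of the EtOH libraries the shortest and the longest classes had lower kept shares than class 8. In EtOH replicate 1, 71.0% of class 1, 97.8% of class 8 and 88.1% of class 10 lay at kept sites. Class 8 had the highest share in this library, so it was picked by the values compared. The exact 95% intervals were 95.2 to 99.2% for class 8 and 83.7 to 91.7% for class 10. They cover the counting of peaks only and are no test. In EtOH replicate 2 the corresponding shares were 83.1%, 98.4% and 81.4%, with 59, 61 and 59 peaks behind them and intervals of 91.2 to 99.96% for class 8 and 69.1 to 90.3% for class 10. The highest share there was that of class 2 (100%). Absent peaks of EtOH replicate 1 were short, with a median of 221 bp against 287 bp at kept sites. In EtOH replicate 2 they were not, with 342 bp against 336 bp.

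At sites with exactly 1 peak in each of the 4 lists, of which there were 376, the induced peaks were the longer ones almost everywhere. Peak length there ranged from 169 to 2193 bp in EtOH replicate 1, with a median of 392 bp, and from 185 to 1273 bp in EtOH replicate 2, with a median of 344.5 bp. It ranged from 297 to 3357 bp in 4-OHT replicate 1 (median 679 bp) and from 296 to 4364 bp in 4-OHT replicate 2 (median 1092.5 bp). Both induced peaks were longer than both EtOH peaks at 374 of the 376 sites (99.5%), and at 0 sites (0%) were both shorter. These 376 sites are all the sites compared, so no other sites give a background for this count. Between replicates, 4-OHT replicate 2 had the longer peak at 366 of the 376 sites (97.3%), and EtOH replicate 2 at 101 (26.9%). A difference at nearly all sites thus also occurred between libraries of the same treatment. The median log2 ratio of 4-OHT over EtOH length was 0.67, 0.96, 1.38 and 1.61 over the 4 pairs of libraries, with a mean of 1.16, or 2.23-fold. Between replicates the medians were -0.21 for EtOH and 0.54 for 4-OHT, so each of the 4 differences exceeded both replicate differences in size. The test over libraries could not go below 0.333 and gave that value (two-sided exact permutation p = 0.333). Without 4-OHT replicate 2 the mean was 0.83, and without 4-OHT replicate 1 it was 1.58.

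**Figure D3:**
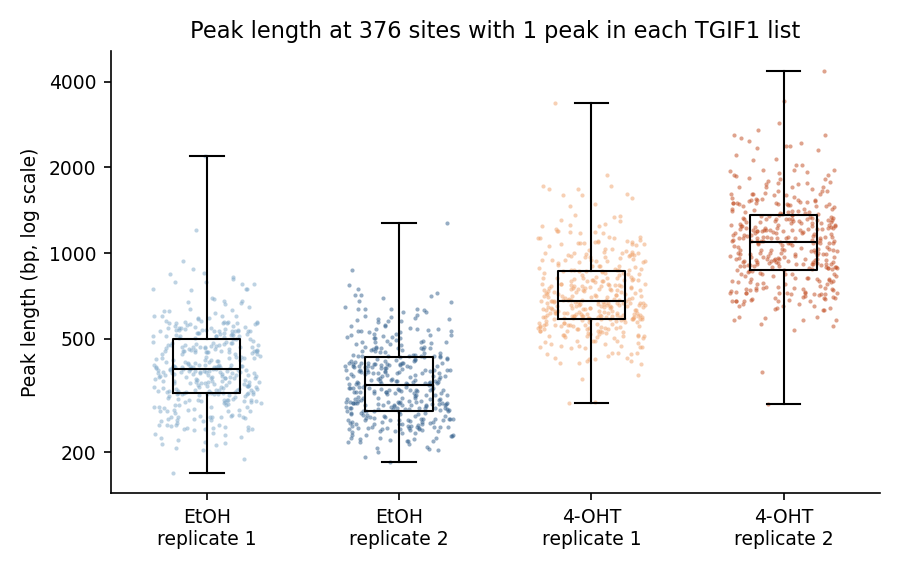
Peak length in bp (vertical log axis) at the 376 sites with 1 peak in each TGIF1 list. Each point is a site, boxes give the quartiles and median, and whiskers the lowest and highest value. The medians of 392 and 344.5 bp in the EtOH libraries lie below those of 679 and 1092.5 bp in the 4-OHT libraries.

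The extra width lay on both sides of the earlier peak. In the 4 comparisons of a control with an induced library, the induced peak reached a median of 114 to 333 bp further to the left and 115 to 311 bp further to the right. For EtOH replicate 1 and 4-OHT replicate 1 these medians were 114 and 115 bp. The EtOH peak lay wholly inside the induced peak at 93.6 to 99.7% of the sites. At each of the 92 sites where EtOH replicate 1 had more than 1 peak, a single 4-OHT peak bridged at least 2 of them. Peaks of 1 list are merged only through a peak of another list, so such a bridge is required by the definition of a site. A larger group of 2032 sites, with 1 peak in EtOH replicate 1 and in each 4-OHT library, gave median ratios of 1.86 and 2.91, against 1.46 between the 4-OHT replicates.

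Individual kept sites show the range. The largest gain in length was on chromosome 4 from 107474501 to 107477201 (mm9, as for all coordinates here), where the peaks were 258 and 245 bp long under EtOH and 1606 and 2701 bp under 4-OHT. The 4-OHT summits there lay 1068 bp apart. On chromosome 19 from 7091379 to 7094238 they were 265 and 282 bp under EtOH and 1716 and 2860 bp under 4-OHT, with 4-OHT summits 23 bp apart. Next came chromosome 8 from 96909930 to 96911816, with 224 and 323 bp against 1679 and 1887 bp, and chromosome 11 from 98064119 to 98065899, with 233 and 193 bp against 1091 and 1781 bp. In each of these the treatments did not overlap. Across the 376 sites the mean log2 length under 4-OHT minus that under EtOH ran from 0.29 to 3.05, with a median of 1.17, and was below 0 at none. The pair of sites where the groups overlapped were chromosome 11 from 83285935 to 83287066, with 627 and 265 bp under EtOH and 602 and 1132 bp under 4-OHT, and chromosome 15 from 12250885 to 12252078, with 242 and 554 bp against 493 and 1194 bp. They were picked out after their values were seen. The kept sites that ranked highest by length in all 4 lists lay on chromosome 1. The peaks from 87493794 to 87498157 were 2193 and 1273 bp long under EtOH and 3357 and 4364 bp under 4-OHT. From 85266262 to 85275666, a span of 9405 bp, the EtOH peaks were 1459 and 1543 bp long, and a single peak of 4-OHT replicate 2 covered the whole span. The other 6 of the 8 longest by this rank were 1509 to 1947 bp long and lay on chromosomes 3, 6, 13, 15 (2 sites) and 17. That on chromosome 3, from 40650285 to 40651793, had peaks of 648 and 645 bp under EtOH and 1246 and 1509 bp under 4-OHT, and its summit differed by 220.5 bp between treatments, against 24 and 17 bp between replicates.

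Summit distances between treatments lay between those of the EtOH and the 4-OHT replicates. At the 376 sites the median distance between the summits of an EtOH and a 4-OHT library was 14, 15, 19.5 and 20 bp over the 4 pairs. The EtOH replicates lay 21 bp apart and the 4-OHT replicates 10 bp. The mean between treatments, 17.1 bp, exceeded the mean between replicates, 15.5 bp, by 1.6 bp, and the two-sided exact permutation test gave p = 0.333, the smallest possible. With a library left out, only the replicate distance of the other treatment remained as the yardstick, and the set of sites changed. The difference was then 10.5 bp without EtOH replicate 1 and 6.5 bp without EtOH replicate 2. It was -2.5 bp without 4-OHT replicate 1 and -4.0 bp without 4-OHT replicate 2. Because the yardstick changed, these values cannot tell how far the difference rested on single libraries. The summits lay within 50 bp of each other at 86.2, 83.5, 74.5 and 73.1% of the sites between treatments, at 73.9% between the EtOH replicates and at 90.7% between the 4-OHT replicates. Both pairs with the lower shares contain EtOH replicate 2. Signed shifts had medians of -1 to 2 bp, close to 0 in every pair. The EtOH summit lay inside the induced peak at all 376 sites for 3 of the 4 pairs, and at 375 for EtOH replicate 2 with 4-OHT replicate 1.

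**Figure D4:**
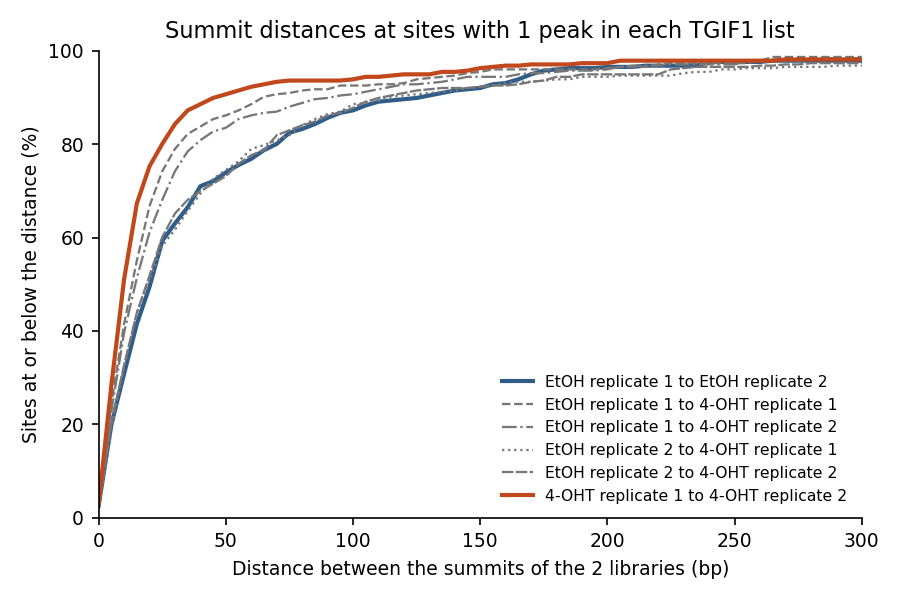
Cumulative share of the 376 sites (vertical axis, %) by distance between the summits of a pair of libraries (horizontal axis, bp). Thick lines are replicates of a treatment and thin grey lines pairs of an EtOH and a 4-OHT library; the grey lines run between or along the EtOH replicates, at a median of 21 bp, and the 4-OHT replicates, at 10 bp.

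At single sites, the shift of the summit between treatments was set against the replicate distances. The shift between the treatment means exceeded both replicate distances at 77 of the 376 sites (20.5%), 47 towards higher and 30 towards lower coordinates. Both 4-OHT summits lay on one side of both EtOH summits at 131 (34.8%), an order that says nothing of the distance and is not read as a shift. How many of the 376 sites would meet either rule if treatment made no difference was not tested. The 77 sites are therefore a description and not evidence of a shift with treatment. The median shift at the 77 sites was 25.5 bp, and at 21 of them it exceeded 50 bp. The largest was on chromosome 2 from 71204801 to 71206053. There the summits were at 71205612 and 71205649 under EtOH and at 71205157 and 71205156 under 4-OHT, a shift of -474 bp (towards lower coordinates) against 37 and 1 bp between replicates. Also on chromosome 2, from 113687179 to 113689064, the shift was -261.5 bp, with 5 and 8 bp between replicates. On chromosome 19 from 25073479 to 25074960 it was 244 bp, with 23 and 5 bp between replicates. The fourth, on chromosome 2 from 91022808 to 91024294, was 235 bp, with 168 and 60 bp between replicates.

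Summits of the induced replicates were further apart at new than at kept sites. With 1 peak in each induced library, 8463 new and 2137 kept sites were available. The median distance between the 4-OHT replicates was 16 bp at new sites and 11 bp at kept sites, and 85.7% and 89.5% of the summits lay within 50 bp. Distances over 200 bp occurred at 5.78% and 4.07%. These are values of 1 pair of libraries, with no replicate check. The widening from replicate 1 to replicate 2 was about equal, 1.49-fold at new sites and 1.46-fold at kept sites.

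The longest new sites included some without MEIS1. By length rank in both induced libraries, they were led by chromosome 12 from 117486719 to 117490732, with peaks of 3952 and 4014 bp, followed by chromosome 13 from 58447621 to 58451461, with 3715 and 3841 bp. The third lay on chromosome 1 from 153647187 to 153650304 (2615 and 3118 bp) and the fourth on chromosome 15 from 80070181 to 80072951 (2599 and 2771 bp). None of these 4 sites carried a peak in any of the 4 MEIS1 lists. The next 4 did. On chromosome 11 from 78471213 to 78473702 (2260 and 2490 bp), on chromosome 1 from 85322894 to 85325266 (2341 and 2369 bp) and on chromosome 15 from 8468029 to 8470378 (2099 and 2350 bp), all 4 MEIS1 lists held a peak. On chromosome 2 from 118127381 to 118130330 (1381 and 2950 bp), 3 of them did.

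Most absent sites were short, but 3 of the 4 seen in both EtOH libraries were long. Site length had quartiles of 189 and 349.5 bp and a maximum of 6263 bp. The 4 absent sites with a peak in both EtOH libraries included 3 of over 3 kb. On chromosome 15 from 75932952 to 75936444 the EtOH peaks were 3447 and 3493 bp long. On chromosome 6 they were 2480 and 2339 bp from 47712100 to 47715322, and 2453 and 2295 bp from 47603895 to 47607002. The remaining one, on chromosome 7 from 36063477 to 36063976, had peaks of 452 and 491 bp. None of the 4 had a 4-OHT peak in either library.

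The sites on chromosome 6 belong to a dense cluster. The 1-Mb window that starts at 47000000 held 7 absent sites, the most of any window, and 19 and 8 EtOH peaks. The EtOH sites numbered 18 and lay within 122 kb, from 47601477 to 47723434. Of these, 17 had a peak in EtOH replicate 1, 8 in EtOH replicate 2, 11 in 4-OHT replicate 1 and 1 in 4-OHT replicate 2. MEIS1 lists differed there in the same way, with a peak at 17 of the 18 in MEIS1 EtOH replicate 1 and at 10 in MEIS1 4-OHT replicate 1, but at 2 and 3 in the lists numbered 2. In all 4 pairs of replicates the list numbered 1 held more of these sites than the list numbered 2. The 18 sites were chosen by an EtOH peak, and the window by its absent sites, so the TGIF1 counts were partly set in advance. Over all 28 sites of the window, lists 1 and 2 held 15 and 11 for 4-OHT. For MEIS1 they held 20 and 11 under EtOH and 13 and 12 under 4-OHT. Of the 60 sites with a TGIF1 peak of at least 3 kb, 14 had none in 4-OHT replicate 2. At these 14, MEIS1 was listed at 10 and 4 in the lists numbered 1 and at 1 and 2 in those numbered 2, while at the other 46 the 4 MEIS1 lists held a peak at 34, 39, 26 and 39. The part of this difference between replicate numbers in the absent class was not tested.

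Kept and new sites lay on every autosome and on X, but unevenly. Of 2646 windows of 1 Mb, reaching on each of the 19 autosomes and X to the last peak of any list, 43.3% and 15.9% held a peak in the EtOH libraries and 66.4% and 76.6% in the 4-OHT libraries. The means were 29.6 ± 19.4% and 71.5 ± 7.19% (SD, n = 2), a difference of 41.9 percentage points (two-sided exact permutation p = 0.333, the smallest possible). Without EtOH replicate 2 it was 28.2 points, and with windows of 100 kb 24.3 points. With every list cut to its 592 longest peaks it was -0.567 points. That cut lets each list fill at most 592 windows and also selects peaks by length. The part of peak number in the wider spread was therefore not tested. New sites lay in 2020 windows and kept sites in 1089. The median window held 5 new and 0 kept sites, and the fullest held 76 and 16. New sites without any EtOH site were found in 881 windows (33.3%), both new and kept in 1078 (40.7%), kept without new in 11, and no site at all in 599 (22.6%). Windows with a kept site held 76.3% of the new sites.

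New sites lay about as far from kept sites as kept sites lay from each other. The median distance from a new site to the nearest kept site was 136 kb, and 9.08% lay within 10 kb of one. Among kept sites the median distance to the nearest other kept site was 111 kb, and 8.72% had one within 10 kb. Absent sites lay further off, with a median of 243 kb, and 19.8% of them were more than 1 Mb from any kept site, against 11.96% of the new and 8.72% of the kept sites. The windows with most new sites were on chromosome 10, from 80000000 to 80999999 with 76 new and 15 kept sites and from 79000000 to 79999999 with 75 and 10. Next were chromosome 2 from 167000000 to 167999999 with 63 and 6, and chromosome 15 from 78000000 to 78999999 with 61 and 12, a number of new sites that a pair of windows on chromosome 17 also reached.

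Chromosome 15 showed the largest difference in the share of peaks per chromosome. Of the 20 chromosomes, 9 (45%) had a higher share in both 4-OHT libraries than in both EtOH libraries and 2 (10%) a lower one. The two-sided exact permutation test gave p = 0.333 for each of these 11, the smallest possible (0.606 after Benjamini-Hochberg adjustment over the 20 chromosomes). The pair with lower shares were chromosomes 15 and 3. Chromosome 15 held 7.92% and 13.5% of the EtOH peaks and 6.33% and 5.55% of the 4-OHT peaks, and chromosome 3 held 6.08% and 9.29% against 5.21% and 4.98%. In both, EtOH replicate 2 was the highest library. The difference for chromosome 15 was -4.77 percentage points, and it was -1.98 without EtOH replicate 2 and -7.57 without EtOH replicate 1. MEIS1 lists gave 5.39 to 5.87% for chromosome 15 and 5.58 to 5.76% for chromosome 3, which for chromosome 3 lay between the 4-OHT lists and EtOH replicate 1. The X chromosome had the fewest new sites per Mb, 1.68, against 7.21 to 15.3 on the autosomes.

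**Figure D5:**
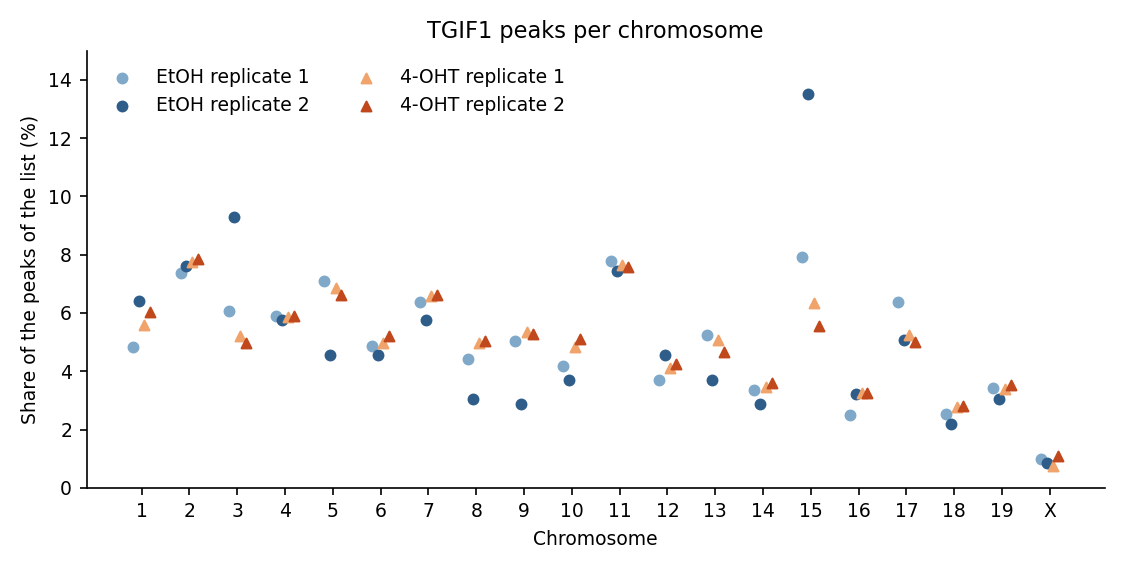
Share of the peaks of each TGIF1 list (vertical axis, %) on each chromosome (horizontal axis); circles are EtOH and triangles 4-OHT libraries. On chromosome 15 the EtOH libraries stand at 7.92% and 13.5%, above the 4-OHT libraries at 6.33% and 5.55%.

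The excess on chromosome 15 lay in its distal part. From 75000000 to its end, a stretch chosen after the data were seen, fell 5.28% and 10.8% of the EtOH peaks, 3.90% and 3.14% of the 4-OHT peaks, and 2.59 to 2.88% of the MEIS1 peaks. The first 75 Mb held 2.64% and 2.70% of the EtOH peaks and 2.44% and 2.41% of the 4-OHT peaks. The distal stretch carried 25.1 new and 5.25 kept sites per Mb, against 9.42 and 0.953 over all chromosomes, and 17.3% of its 862 sites with a 4-OHT peak were kept, against 9.19% overall. The longest peaks of the induced libraries favoured the same stretch. It held 10.6% and 10.1% of the 592 longest 4-OHT peaks, beside 9.46% and 10.8% for the EtOH libraries. With lists of this length the difference in the chromosome 15 share turned to 1.35 percentage points.

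MEIS1 peaks, which the classing did not use, were listed at a smaller share of absent sites than of new or kept sites. At absent sites the 4 MEIS1 lists (EtOH replicates 1 and 2, then 4-OHT replicates 1 and 2) held a peak in 8.99, 7.55, 7.91 and 10.1% of cases. At new sites these shares were 42.5, 70.3, 34.3 and 70.9%, and at kept sites 64.8, 89.0, 55.7 and 88.9%. The order absent, new, kept was the same in all 4 lists. The means over the lists were 8.63 ± 1.14%, 54.5 ± 18.9% and 74.6 ± 17.0% (SD over 4 lists of 2 treatments). A MEIS1 peak in at least 1 list was found at 57 of the 278 absent sites (20.5%, exact 95% interval 15.9 to 25.7%), at 76.9% of the new sites and at 92.4% of the kept sites. Without 4-OHT replicate 2 the mean share was 64.9% at new sites and 21.5% at absent sites, and without EtOH replicate 1 it was 14.7% at absent sites. The shares were also compared among peaks of like length. Among peaks of EtOH replicate 1 under 300 bp, MEIS1 was listed in at least 1 library at 28 of 177 absent peaks (15.8%) and at 1291 of 1430 kept peaks (90.3%). Among those from 300 bp to under 1000 bp it was 8 of 51 (15.7%) and 988 of 1073 (92.1%). Long absent peaks mostly did carry MEIS1 in at least 1 list: at 1000 bp or more it was 10 of 15 absent (66.7%) and 17 of 18 kept peaks (94.4%) of EtOH replicate 1, and 4 of 6 absent and 9 of 10 kept peaks of EtOH replicate 2. For EtOH replicate 1 this rested on the MEIS1 lists numbered 1, with 8 and 5 of the 15 absent peaks, against 1 and 1 in those numbered 2. Of the 18 kept peaks the lists numbered 1 held 17 and 14, and those numbered 2 held 7 and 7. With EtOH replicate 2 the shares over all lengths were 13 of 39 (33.3%) and 506 of 553 (91.5%). Under a reciprocal overlap of 50% the absent class grew to 1457 sites, since an EtOH peak inside a wider 4-OHT peak then counts as absent, and the mean MEIS1 share in it was 61.1%.

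The gap between kept and new sites was smaller and depended on peak length and library. Peaks of 4-OHT replicate 2 were compared within 5 equal classes of length. In the longest class, MEIS1 was listed on average over the 4 lists at 79.7% of kept and 67.1% of new peaks, and in the shortest at 31.8% of 37 kept and 40.1% of 5335 new peaks. In the 3 classes between, from shorter to longer, it was 59.0% of kept against 49.0% of new peaks, 72.7% against 58.5% and 74.2% against 63.5%. For peaks of 4-OHT replicate 1 the means were 77.3% and 72.0% in the longest class and 54.4% and 56.2% in the shortest. Between these they were 64.1% against 62.7%, 68.3% against 67.0% and 73.5% against 72.3%. The single MEIS1 lists differed in direction for 4-OHT replicate 1. Kept exceeded new in 2 and 5 of the 5 classes with MEIS1 EtOH replicates 1 and 2, and in 2 and 4 with MEIS1 4-OHT replicates 1 and 2. For 4-OHT replicate 2 it was 4 of the 5 classes with each list. When only peaks found in both libraries of their group were used, MEIS1 shares averaged 70.0% at new and 73.8% at kept sites. Regions are not replicates of a condition, and no test was made on these shares.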

How the data were processed

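Peak lists of the 4 TGIF1 libraries, and of 4 MEIS1 libraries for comparison, were read as the authors deposited them. Per the labels' protocols, chromatin was sonicated to fragments near 300 bp. Bowtie 0.12.7 and the build mm9 are given per the submitters' processing notes. Only 1 MEIS1 list has a header that states its caller, MACS 1.4.2. No peak threshold or control library is stated, and read depth is unknown. The lists hold no score, so length rank replaced it. The IgG sample was not analysed here. Without mm9 annotation or sequence in use, no gene or motif is named.

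Libraries were compared by two-sided exact permutation tests, threshold 0.05. Named sites were the highest by mean length percentile in each class, the largest summit shifts and length ratios, and the windows with most new sites. The members and lists were chosen with earlier results of these data known. Alternatives are given in the closing section. Sites equalled those of bedtools 2.31.1 (27621), as did 12 of 12 overlap counts. In simulated lists 9000 new, 2000 kept and 300 absent sites were recovered. Python 3.11.15, numpy 2.4.6, pandas 2.3.3 and scipy 1.17.1 were used.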

Additional observations from a re-analysis of the deposited data

How the results depend on the processing

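The share of EtOH sites that were kept was 90.0% and became 49.97% with a reciprocal overlap of 50%, 83.7% with summits within 200 bp, 92.1% with the longer 50% of each list, 31.1% with lists of equal length and 97.0% with peaks found in both libraries of a group. Leaving out single libraries gave 85.5 to 93.4%. The new share of 4-OHT sites was 90.8%, 72.5% with lists of equal length, and 80.1 to 98.0% without single libraries. The MEIS1 share at absent sites, 8.63%, became 61.1% with the reciprocal overlap, 29.6% with summits within 200 bp, 19.0% with the longer 50%, 60.7% with equal lists and 26.8% with peaks in both libraries. It was 10.1% for MEIS1 4-OHT replicate 2 alone, 20.5% for any MEIS1 list, and 7.82 to 21.5% without single TGIF1 libraries. At new sites it was 76.0% with equal lists, 34.3% for MEIS1 4-OHT replicate 1 alone and 76.9% for any list, and at kept sites 55.7% for MEIS1 4-OHT replicate 1 alone and 92.4% for any list. By construction the overlap rule changes what is joined, and the list length changes how many and which peaks there are. Apart from these, the cause was not tested. Genome spread turned to -0.567 percentage points, and the chromosome 15 share, whose alternatives were added after seeing the data, to 1.35 points with equal lists. The summit difference ranged from -4.0 to 10.5 bp without single libraries and was negative without a 4-OHT library. Its yardstick was then the replicate distance of the other treatment alone, so nothing is read from this change of sign. The direction of peak number, covered length, median length and length change held in all 7, 9, 10 and 12 alternatives, but none of their tests could pass the threshold. Their log2 ratios without single libraries ranged from 2.82 to 5.04 for peak number, from 3.37 to 5.65 for covered length and from 0.83 to 1.58 for length change. With equal lists covered length gave 1.78. Such lists hold only the longest peaks of the longer lists, which favours longer 4-OHT peaks in advance. The direction of covered length, median length and length change in that alternative is therefore no independent support.

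Nothing in the labels shows that equal replicate numbers pair the libraries. Within replicate numbers (the replicate block) the log2 ratios were 3.82 for peak number, 4.48 for covered length and 1.14 for length change, the summit difference was 1.25 bp, the kept share 89.4% and the new share 89.3%. Differences of replicate 1 and 2 in peak length correlated between treatments across the 376 sites (r = 0.207), as did those in presence of a peak across all 27621 sites (r = 0.282), but sites are not replicates and 2 pairs cannot decide on pairing.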
